A study of Mus musculus with 7 samples.

Results

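The expression of 10 transcription factor genes that drive megakaryocyte (MK) development, Gata1, Gata2, Zfpm1, Tal1, Lyl1, Gfi1b, Fli1, Runx1, Nfe2 and Mafg, was followed in MKs of mice infused with serotonin (5-HT). The genes were listed by name for their known role in MKs. Of the 19057 genes named by a single symbol on the array, 9 of these 10 were represented, by 13 probes in all, and Zfpm1 was not analysed here. The brightest probe stood for each gene. Of the 9 genes, 8 reached a mean log2 signal of 7.5 over all arrays and were tested together with the other genes above that limit, 5428 in all, while Runx1 lay below it and is given by its values. The question was whether raised plasma 5-HT was accompanied by other transcript levels of these factors.

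In the 5-HT group, male C57BL/6J mice aged 10 to 12 weeks carried a subcutaneous pump filled with 25.8 mM 5-HT, which delivered 1.66 µg/kg/h for 24 h. Mice of the saline group were infused with saline for the same time, and no genetic change is named for either group. Marrow of 3 to 4 mice was pooled for each sample, enriched on a Percoll gradient and selected with magnetic beads for CD41, the integrin αIIb that Itga2b encodes. There were 4 5-HT arrays and 3 saline arrays, each an Illumina mouse BeadChip array hybridized with 1 sample, after the authors had removed 1 control array as an outlier. The labels number the samples but do not say that each pool came from other animals or another day, so the p-values measure only the spread between these samples. As these are bulk samples, fewer MKs and less RNA per MK cannot be told apart.

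MKs grow out of progenitors that they share with red cells, and a small set of DNA-binding proteins directs that choice. GATA factors bind together with the cofactor Fog1, which Zfpm1 encodes, and with complexes built on the helix-loop-helix proteins Tal1 and Lyl1. Ets and Runx factors join them at MK genes, and the NF-E2 dimer, made of p45 (Nfe2) and a small Maf protein such as Mafg, drives the last steps towards platelet release.

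The deposited values are log2 signals that had been shifted to the same median over all probes, 6.68, on every array. Over the tested genes the array medians were 9.43, 8.28, 8.96 and 9.03 in 5-HT samples, against 8.99, 8.15 and 8.32 in saline samples, so 5-HT replicate 2 and saline replicates 2 and 3 stood apart from the others. At an adjusted p under 0.05, limma called 0 of 5428 genes, which is 0% of those tested, and 311 (5.73%) had an unadjusted p under 0.05, of which 310 were higher in 5-HT samples and 1 was lower. After quantile normalization, which gives every array the same distribution of signals, that split was 155 higher and 131 lower. Over all tested genes the log2 fold change had a median of 0.42 in the deposited values and 0.07 after quantile normalization, and the factors are read against it. All log2 fold changes are 5-HT minus saline, with the moderated standard error (SE) of limma.

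Of the 8 tested factors, limma called 0 at an adjusted p under 0.05. Nfe2, the p45 subunit of NF-E2, had the largest difference among them, with a log2 fold change of 1.07 (SE 0.39), and was the 1 factor with an unadjusted p under 0.05 and the 1 whose groups did not overlap. Among the tested genes, the 4 5-HT samples were all higher than the 3 saline samples in 6.28% and all lower in 0.129%. The 8 log2 fold changes were all above 0 and 6 exceeded the median of all tested genes. Of all tested genes, 91.4% had a log2 fold change above 0. The signal limit was set on the mean of all arrays and so is tied to the group difference. Gata1 and Gata2 averaged under 7.5 in saline samples (7.49 and 7.21) and over it in 5-HT samples (8.03 and 8.0). Runx1, left out by the limit, averaged 7.52 in saline samples and 7.29 in 5-HT samples. The median of the 8 was 0.61, against 0.42 for all tested genes. Without saline replicate 1 it was 1.13 against 0.64, without 5-HT replicate 2 it was 0.96 against 0.60, without saline replicate 2 it was 0.35 against 0.26, without saline replicate 3 it was 0.32 against 0.35, and without 5-HT replicate 4 both were 0.38. Fli1 and Mafg stood below that median, and their log2 fold changes were below 0 after each of the 3 rescalings tried, quantile, cyclic loess and an equal median over the tested genes.

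**Figure D1:**
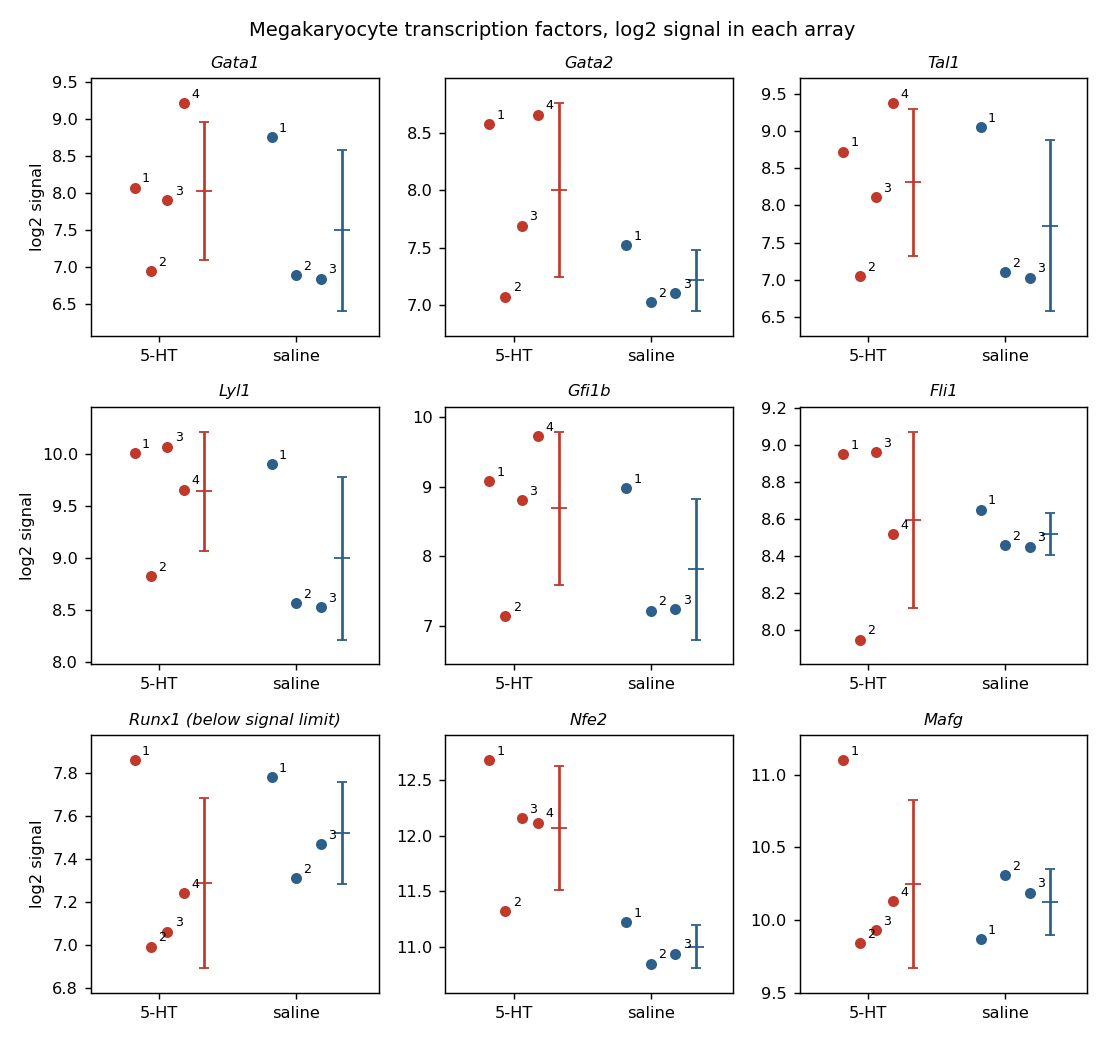
Log2 signal (vertical axis, its own range in each panel) of 9 transcription factor genes in each array, with 5-HT samples on the left and saline samples on the right. Points are single arrays labelled with the replicate number and bars show the mean ± SD; the 4 5-HT points of Nfe2 all lie above its 3 saline points, while the groups overlap in the other 8 panels.

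Gata1, the X-linked GATA factor needed for MK maturation, had signals of 8.07, 6.94, 7.90 and 9.21 in 5-HT samples, against 8.75, 6.89 and 6.84 in saline samples. The values formed a high and a low set in which both groups were present: 5-HT replicate 2 lay beside saline replicates 2 and 3, and saline replicate 1 lay above all but 1 of the 5-HT samples. The low set, at 6.84 to 6.94, lay close to the probe median of 6.68. The means were 8.03 ± 0.93 (SD, n = 4) in 5-HT samples and 7.49 ± 1.09 (SD, n = 3) in saline samples. The log2 fold change of Gata1 was 0.54 (SE 0.50, adjusted p = 0.586 from limma). The other Gata1 probe read 6.70, 6.56, 6.87 and 6.88 in 5-HT samples, against 6.89, 6.60 and 6.74 in saline samples, all close to the probe median of 6.68. That probe thus did not show the high and low set of the brighter one.

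Gata2, the GATA factor of stem and early progenitor cells that Gata1 replaces as MKs mature, had signals of 8.58, 7.07, 7.69 and 8.66 in 5-HT samples, against 7.52, 7.02 and 7.10 in saline samples. Replicate 2 was again the low 5-HT sample, and it was the only one within the range of the saline samples. At 7.02 to 7.10, it and saline replicates 2 and 3 read not far above the probe median of 6.68. Gata2 averaged 8.0 ± 0.76 (SD, n = 4) in 5-HT samples and 7.21 ± 0.27 (SD, n = 3) in saline samples, and its log2 fold change was 0.79 (SE 0.41, adjusted p = 0.563 from limma). In saline replicate 1 Gata2 stood 0.46 above the mean of the other saline samples, whereas Gata1 stood 1.89 above it.

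Tal1, the helix-loop-helix protein at the centre of the GATA complex, had signals of 8.72, 7.05, 8.11 and 9.37 in 5-HT samples, against 9.05, 7.10 and 7.03 in saline samples. The order of the arrays was nearly that of Gata1, with 5-HT replicate 4 and saline replicate 1 highest. The low arrays, at 7.03 to 7.10, read not far above the probe median of 6.68. Tal1 averaged 8.31 ± 0.99 (SD, n = 4) in 5-HT samples and 7.73 ± 1.15 (SD, n = 3) in saline samples, and the log2 fold change was 0.59 (SE 0.51, adjusted p = 0.576 from limma). Lyl1, a close relative of Tal1, read 10.01, 8.83, 10.07 and 9.66 in 5-HT samples, against 9.90, 8.57 and 8.53 in saline samples. Its 3 lowest arrays were the same as those of Tal1, 5-HT replicate 2 and saline replicates 2 and 3. The log2 fold change of Lyl1 was 0.64 (SE 0.42, adjusted p = 0.563 from limma), from means of 9.64 ± 0.57 (SD, n = 4) in 5-HT samples and 9.0 ± 0.78 (SD, n = 3) in saline samples.

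Gfi1b, a zinc finger repressor that MK and red cell precursors both need, had signals of 9.08, 7.14, 8.81 and 9.73 in 5-HT samples, against 8.98, 7.22 and 7.24 in saline samples. A gap of more than 1 log2 unit separated its 4 high arrays from the 3 low ones, and each set held samples of both groups. Gfi1b averaged 8.69 ± 1.10 (SD, n = 4) in 5-HT samples and 7.81 ± 1.01 (SD, n = 3) in saline samples, a log2 fold change of 0.88 (SE 0.51, adjusted p = 0.563 from limma). The second Gfi1b probe had the same 4 high and 3 low arrays, with 8.90, 7.09, 8.46 and 9.41 in 5-HT samples, against 8.69, 7.06 and 7.45 in saline samples.

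The upstream sequences of 3 factors whose signals ran together over the arrays, Gata1, Tal1 and Gfi1b, are shown because Gata1 binds GATA sites and Tal1 and Gfi1b are its partners. They are the 250 bases before a transcription start from RefSeq (GRCm38.p6), written 5′ to 3′ on the strand of the gene, with a GATA motif, AGATAA or TGATAA on either strand, in capitals. Those of Gata1 lie on the minus strand at chrX:7967911-7968160, those of Tal1, at the first of its 2 listed starts, on the plus strand at chr4:115056176-115056425, and those of Gfi1b on the minus strand at chr2:28621983-28622232.
Gata1: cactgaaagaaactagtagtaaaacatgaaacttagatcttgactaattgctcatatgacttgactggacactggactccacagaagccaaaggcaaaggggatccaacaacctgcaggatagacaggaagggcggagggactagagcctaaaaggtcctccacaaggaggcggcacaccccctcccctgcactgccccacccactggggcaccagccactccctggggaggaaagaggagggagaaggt
Tal1: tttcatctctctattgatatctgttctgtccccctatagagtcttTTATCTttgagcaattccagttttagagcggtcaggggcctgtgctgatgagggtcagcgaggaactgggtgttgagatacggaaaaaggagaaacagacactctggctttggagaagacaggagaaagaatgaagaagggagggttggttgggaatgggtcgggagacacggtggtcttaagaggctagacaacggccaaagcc
Gfi1b: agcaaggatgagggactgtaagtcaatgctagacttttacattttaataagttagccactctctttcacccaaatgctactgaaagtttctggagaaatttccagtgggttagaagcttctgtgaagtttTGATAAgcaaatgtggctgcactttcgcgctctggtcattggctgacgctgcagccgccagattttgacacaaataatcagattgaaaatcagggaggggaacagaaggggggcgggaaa
The Tal1 window held 1 GATA motif, TTATCT, which is AGATAA on the other strand, starting at position -205 from the start site. In the Gfi1b window TGATAA stood at position -120, and the Gata1 window held neither motif. The window at the second Tal1 start, not shown, held neither, and no other of the 11 windows listed for 8 of the 10 factors held one. Either GATA motif was present in 16.6% of the 32851 windows of this length, AGATAA in 9.99% and TGATAA in 7.94%. The same search was made with CAGATG (an E-box), TGTGGT (Runx), CGGAAG (Ets) and TGAGTCA (the NF-E2 core), of which none contains another or a GATA motif, and none was found in the 3 windows shown. Of the 11 windows listed for 8 of the 10 factors, CGGAAG was found in those of Lyl1, reversed at position -182, and Zfpm1, at position -192, and it was present in 13.6% of all windows. A motif match is a description of the letters and no measure of binding.

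Fli1, the Ets factor that favours MKs over red cells, had signals of 8.95, 7.95, 8.96 and 8.52 in 5-HT samples, against 8.65, 8.46 and 8.45 in saline samples. The saline samples lay inside the range of the 5-HT samples, and 5-HT replicate 2 was again the lowest. Fli1 averaged 8.60 ± 0.48 (SD, n = 4) in 5-HT samples and 8.52 ± 0.11 (SD, n = 3) in saline samples, a log2 fold change of 0.075 (SE 0.38, adjusted p = 0.898 from limma). After quantile normalization the log2 fold change of Fli1 was -0.32. Runx1, which opens MK genes and is mutated in a familial platelet disorder of humans, had signals of 7.86, 6.99, 7.06 and 7.24 in 5-HT samples, against 7.78, 7.31 and 7.47 in saline samples. All but 1 of the 5-HT samples lay below the saline samples, with a difference of -0.23 (two-sided exact permutation p = 0.4, n = 4 and 3). After quantile normalization Runx1 read 7.45, 7.18, 7.09 and 7.15 in 5-HT samples, against 7.55, 7.64 and 7.76 in saline samples. The groups of Runx1 then did not overlap (difference -0.43, two-sided exact permutation p = 0.0571, against a smallest possible p of 0.0286), and 1.63% of the genes tested after quantile normalization were separated in this direction. Runx1, below the signal limit there too, is not among those genes, which are brighter on average. The dimmer Runx1 probe stayed between 6.57 and 6.80 on all arrays.

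Nfe2 had signals of 12.68, 11.32, 12.16 and 12.12 in 5-HT samples, against 11.22, 10.85 and 10.94 in saline samples. The lowest 5-HT sample, replicate 2, exceeded the highest saline sample, replicate 1, by a narrow margin. Nfe2 averaged 12.07 ± 0.56 (SD, n = 4) in 5-HT samples and 11.00 ± 0.19 (SD, n = 3) in saline samples, and the adjusted p of its log2 fold change was 0.563 from limma (unadjusted p = 0.0111). After quantile normalization the signals of Nfe2 were 12.06, 11.64, 11.97 and 11.93 in 5-HT samples, against 11.19, 11.37 and 11.27 in saline samples. The groups remained apart, with a log2 fold change of 0.62 and a two-sided exact permutation p of 0.0286, the smallest that 4 against 3 arrays can give. A separation in this direction was then found in 4.75% of the genes. The groups of Nfe2 were also apart after cyclic loess normalization and with an equal median over the tested genes. The two-sided exact permutation p of Nfe2 was 0.0571 in the deposited values and after cyclic loess normalization, and 0.0286 with an equal median. Groups that do not overlap hold this p at or near its smallest value, so it adds little to the separation itself. For the other tested factors the two-sided exact permutation p was 0.171 to 0.943 in the deposited values. In all 16 alternative limma fits the unadjusted p of Nfe2 was under 0.05, with log2 fold changes of 0.58 to 1.32. Its adjusted p was under 0.05 only with array weights. These fits draw on the same arrays and are not independent. Of 5428 tested genes, 55 (without saline replicate 2) to 3649 (with array weights) had an unadjusted p under 0.05 in them. How many genes did so in every fit was not counted.

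Mafg, which lacks an activation domain and works as the partner of p45, had signals of 11.10, 9.84, 9.93 and 10.13 in 5-HT samples, against 9.87, 10.31 and 10.19 in saline samples. In this brighter probe Mafg did not follow Nfe2: 5-HT replicate 1 stood above all other arrays. The remaining 5-HT samples lay between just under the lowest saline sample and the middle one. Mafg averaged 10.25 ± 0.58 (SD, n = 4) in 5-HT samples and 10.12 ± 0.23 (SD, n = 3) in saline samples, with a log2 fold change of 0.13 (SE 0.39, adjusted p = 0.838 from limma), and after quantile normalization it was -0.32. The second Mafg probe read 9.73, 8.12, 8.97 and 8.52 in 5-HT samples, against 9.22, 8.24 and 7.98 in saline samples, a difference of 0.355. Its high and low arrays were those of Gata1, Tal1 and Gfi1b, and also those of the median of all tested genes. The probes thus placed saline replicate 1 differently, as the lowest saline sample in the brighter probe and the highest in the other.

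**Figure D2:**
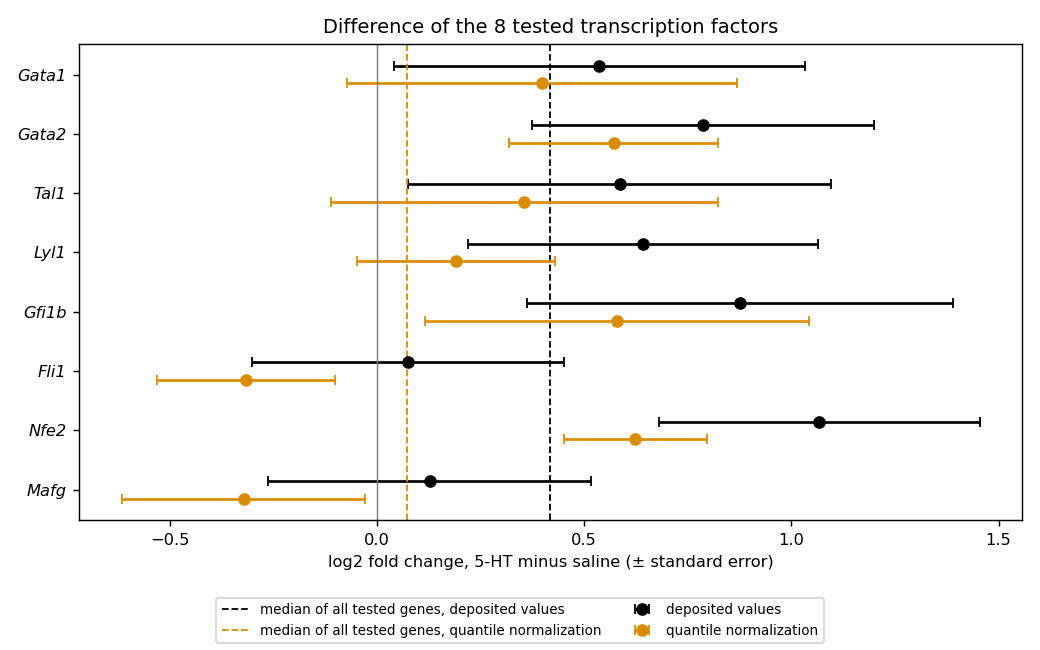
Log2 fold change, 5-HT minus saline, with its standard error (horizontal axis) for the 8 tested factors, in the deposited values (black) and after quantile normalization (orange). Dashed lines mark the median of all tested genes, 0.42 and 0.07; Fli1 and Mafg lie left of 0 after quantile normalization and the other 6 factors stay right of it.

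In Gata1, Tal1, Gfi1b and Lyl1 the same 4 arrays were high and the same 3 low, across the groups. Gata2, Fli1 and the median of all tested genes divided into the same 4 and 3 arrays, so this division is not particular to those factors. Saline replicate 1 stood above the mean of the other saline samples by 1.89 for Gata1, 1.99 for Tal1, 1.75 for Gfi1b and 1.35 for Lyl1, against a median of 0.66 over all tested genes. The corresponding values were 0.33 for Nfe2 and 0.20 for Fli1, and Mafg stood below, at -0.38. All values of Mafg given here are those of its brighter probe, while its second probe had the high and low arrays of Gata1. In the 5-HT group, replicate 2 stood from the mean of the other samples by -1.45 for Gata1, -1.68 for Tal1, -2.07 for Gfi1b, -1.24 for Gata2, -1.08 for Lyl1, -1.0 for Nfe2 and -0.86 for Fli1, against a median of -0.75, and by -0.55 for Mafg. In size, the larger of these distances thus exceeded the log2 fold change between the groups for all 8 tested factors but Nfe2 (-1.0 against 1.07). Over the 7 arrays Pearson's r was 0.985 between Gata1 and Tal1, 0.957 between Gata1 and Gfi1b and 0.974 between Tal1 and Gfi1b, and after quantile normalization 0.986, 0.958 and 0.963. Lyl1 had an r of 0.792 with Gata1, 0.839 with Tal1 and 0.890 with Gfi1b, and after quantile normalization 0.621, 0.596 and 0.621. Gata2 had an r of 0.788 with Gata1, 0.889 with Gfi1b and 0.880 with Nfe2, and after quantile normalization 0.672, 0.799 and 0.789. The r of Gata1 and Mafg was 0.0092 in the deposited values and -0.812 after quantile normalization. These are descriptions over arrays that share the group difference and the spread of each array. The low values of Gata1 lay close to the probe median of 6.68, with those of Tal1 not far above it.

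**Figure D3:**
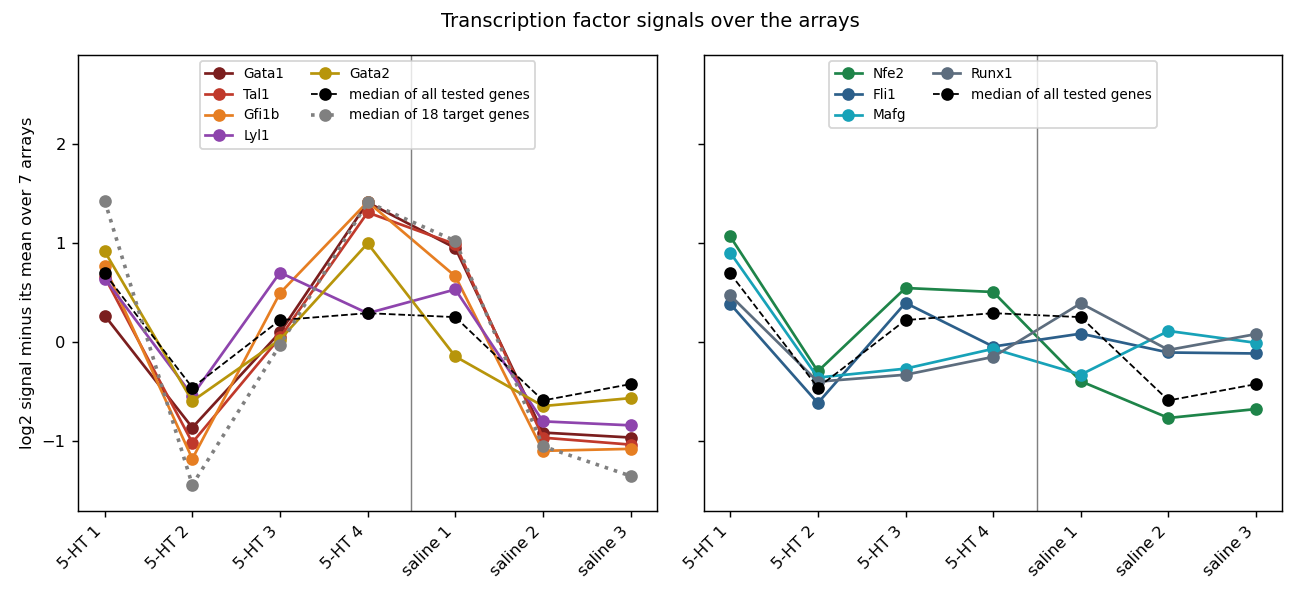
Log2 signal minus the mean of the gene over the 7 arrays (vertical axis) in each array, 5-HT samples left of the vertical line and saline samples right of it, for Gata1, Tal1, Gfi1b, Lyl1 and Gata2 (left panel) and Nfe2, Fli1, Mafg and Runx1 (right panel). Black dashes give the median of all tested genes and grey dots that of 18 MK and platelet genes; in the left panel 5-HT replicate 2 and saline replicates 2 and 3 lie low together.

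The cofactors, dimer partners, relatives and opposing factors of these genes made a list of 34, of which 31 had a probe and 14 were tested. At an adjusted p under 0.05, 0 of the 14 passed in limma. Their median log2 fold change was 0.52, 13 were above 0 (91.4% of all tested genes were) and 9 above the median of all tested genes, and after quantile normalization the median was 0.04. It was 0.31 without 5-HT replicate 1 and 0.29 without saline replicate 2. The 4 with the largest log2 fold changes were Spi1 (PU.1, which opposes Gata1) at 0.97, Srf (an actin-responsive factor) at 0.70, Kdm1a (a histone demethylase that Gfi1b recruits) at 0.69 and Meis1 (a homeobox factor of stem cells and MKs) at 0.58. Spi1 read 9.59, 8.48, 10.43 and 8.95 in 5-HT samples, against 9.30, 8.06 and 7.81 in saline samples, and was the 1 gene of the list with an unadjusted p under 0.05.

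Among the bridging proteins of the Tal1 complex, Ldb1 had a log2 fold change of 0.57 and Lmo2 0.15. Lmo2 read 11.92, 10.54, 10.88 and 11.41 in 5-HT samples, against 11.34, 10.82 and 10.94 in saline samples, with the saline samples inside the range of the 5-HT samples. Cbfb, the partner of Runx1, had a log2 fold change of 0.57, and Cbfa2t3 (Eto2, a corepressor of the Tal1 complex) 0.07. Tcf3, which encodes the E proteins that pair with Tal1, and Mafk, another small Maf, averaged 6.79 and 6.64 in 5-HT samples and 6.74 and 6.72 in saline samples, near the probe median, and were not tested.

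MK and platelet genes, many of them known targets of these factors, made a list of 26, of which 23 had a probe and 18 were tested. Of these, Gp6 and Nrgn passed the signal limit only through the 5-HT samples, with means of 7.76 and 8.08 there and 7.39 and 7.43 in saline samples. Limma called 0 of the 18 at an adjusted p under 0.05, and 0 had an unadjusted p under 0.05. Of the 18, 16 had a log2 fold change above 0 (91.4% of all tested genes did) and 13 exceeded the median of all tested genes. Their median log2 fold change was 0.75, and 0.33 after quantile normalization. Leaving out 1 array moved it by over 1.5 times in 6 cases, to 1.52, 0.40 and 0.39 when the array dropped was saline replicate 1, 2 or 3, and to 0.47, 1.31 and 0.44 when it was 5-HT replicate 1, 2 or 4. The largest log2 fold changes were 1.15 for Itga2b (SE 0.64), 1.11 for Vwf (von Willebrand factor), 1.11 for Gp1bb (a subunit of its receptor) and 0.97 for Plek (pleckstrin). Itga2b, whose product was used to select the cells, read 11.90, 9.36, 11.27 and 12.29 in 5-HT samples, against 12.15, 9.17 and 8.86 in saline samples. Its high and low arrays were those of Gata1, Tal1 and Gfi1b, and also those of the median of all tested genes.

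Gp9, another subunit of the von Willebrand factor receptor, had a log2 fold change of 0.78, and Tubb1, the β1-tubulin of proplatelets and a target of NF-E2, 0.71. Tubb1 read 10.81, 8.20, 9.58 and 10.61 in 5-HT samples, against 10.48, 8.64 and 8.14 in saline samples, and its groups overlapped where those of Nfe2 did not. Pf4, a chemokine of platelet granules, read 14.25, 12.93, 13.28 and 13.93 in 5-HT samples, against 14.05, 13.11 and 13.04 in saline samples, so MK transcripts were present on every array. The median level of the 18 genes was 11.2, 8.35, 9.76 and 11.2 in 5-HT samples, against 10.81, 8.74 and 8.44 in saline samples. Its high and low arrays were those of Gata1 and Tal1, and also those of the median of all tested genes. The part of the MK content of each sample in the differences of the factors was not tested.

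**Figure D4:**
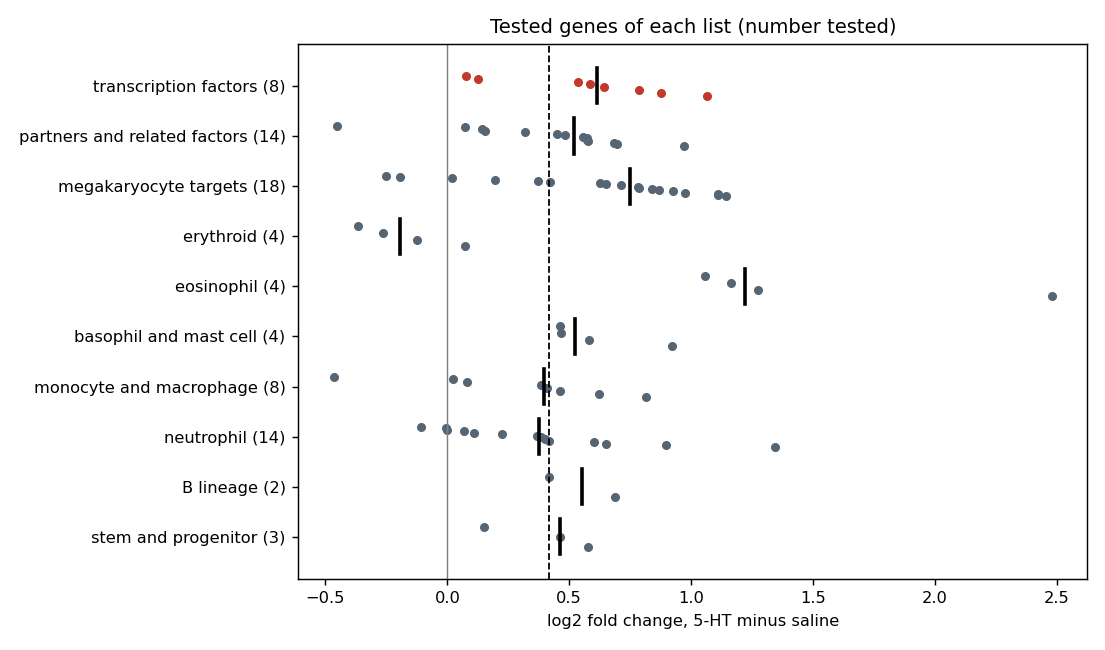
Log2 fold change, 5-HT minus saline (horizontal axis), of every tested gene (points) in each gene list, with the median of the list (bar) and of all tested genes (dashed line, 0.42). The transcription factors, in red, run from 0.075 for Fli1 to 1.07 for Nfe2; medians were 0.75 for the 18 MK and platelet genes and 1.22 for the 4 eosinophil genes.

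Several of these factors also act in other marrow cells, so markers of those cells are given beside them. Nfe2, Gata1, Gata2 and Gfi1b are used by eosinophil, basophil, mast or red cell precursors as well. Of 13 listed eosinophil genes, 9 had a probe and 4 were tested, with a median log2 fold change of 1.22 (0.75 without 5-HT replicate 1), an unadjusted p under 0.05 for all 4 and 0 at an adjusted p under 0.05 in limma. Of these, Prg3 passed the signal limit only through the 5-HT samples, with means of 8.3 there and 7.0 in saline samples. Among the untested genes, Epx averaged 7.9 in 5-HT samples and 6.8 in saline samples. Siglecf, Ccr3, Il5ra and Alox15 stayed at 6.47 to 6.96 on all arrays, near the probe median. Prg2, the major basic protein, read 14.02, 10.72, 10.75 and 12.56 in 5-HT samples, against 10.25, 8.86 and 9.49 in saline samples, so its groups did not overlap, as those of Nfe2 did not. Ear3, an eosinophil ribonuclease, had a log2 fold change of 1.17 (SE 0.50). The summed signal of the eosinophil list, on the log2 scale, ranged over 11.435 to 14.42 in 5-HT samples and 10.21 to 11.40 in saline samples. These sums of the groups thus did not overlap, by a narrow margin. The part of these cells in the values of Nfe2 was not tested.

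Of 18 listed red cell genes, 13 had a probe and 4 were tested, with a median log2 fold change of -0.19, which was 0.12 without 5-HT replicate 2, 0.08 without saline replicate 1 and 0.21 with array weights. It was -0.56 after quantile and after cyclic loess normalization and -0.63 with an equal median over the tested genes. As for Gata1 and Tal1, saline replicate 1 was high and 5-HT replicate 2 low: Hba-a1 stood 0.93 above the mean of the other saline samples in the first, and its distance from the mean of the other 5-HT samples was -2.06 in the second. Hba-a1, an α-globin, averaged 12.9 ± 1.05 (SD, n = 4) in 5-HT samples and 13.27 ± 0.54 (SD, n = 3) in saline samples, and Tfrc, the transferrin receptor, had a log2 fold change of 0.07. The red cell regulator Klf1 stayed at 6.71 to 6.92 on all arrays, near the probe median. The summed log2 signal of the list was 11.77 to 13.85 in 5-HT samples and 13.08 to 14.05 in saline samples. For basophil and mast cell genes, 14 listed, 13 with a probe and 4 tested, the median log2 fold change was 0.52, with Hdc at 0.47 and Kit at 0.46. The median was 0.005 without 5-HT replicate 1, in which Prss34, a protease of basophils named after its values were seen, read 12.00, against 6.93 to 7.40 in the other 5-HT samples. Prss34 and Mcpt8 passed the signal limit only through the 5-HT samples, with means of 8.3 and 7.95 there and 7.40 and 7.37 in saline samples. The list had sums of 11.9 to 13.7 in 5-HT samples and 11.5 to 12.5 in saline samples. Stem and progenitor genes, 11 listed, 10 with a probe and 3 tested, had a median of 0.46 (0.18 without saline replicate 2, 0.25 without 5-HT replicate 1 or 4), led in signal by Meis1 and Kit. Sox4, also tested, passed the limit only through the 5-HT samples, with means of 7.575 there and 7.42 in saline samples.

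Markers of other white cells were present too. Of 14 monocyte and macrophage genes, 12 had a probe and 8 were tested, with a median log2 fold change of 0.40, which was 1.05 without saline replicate 1 and -0.081 without saline replicate 2, and -0.090 after quantile normalization. Their brightest, C1qb, read 10.08, 8.17, 10.90 and 10.86 in 5-HT samples, against 11.98, 7.93 and 8.87 in saline samples. Saline replicate 1 was thus high in C1qb as it was in Gata1 and Tal1, and 5-HT replicate 2 was low in all 3. F13a1, the factor XIII subunit that macrophages and MKs both make, had a log2 fold change of 0.08, and the summed signal of the list ranged over 11.2 to 13.3 in 5-HT samples and 11.2 to 13.9 in saline samples. Of 16 neutrophil genes, 14 had a probe and all 14 were tested (median 0.38). Mmp8 passed the signal limit only through the 5-HT samples, with means of 7.775 there and 7.41 in saline samples. S100a8 averaged 15.2 in either group and Ltf 15.2 in 5-HT samples and 14.8 in saline samples. The summed signal was 17.97 to 18.19 in 5-HT samples and 17.64 to 17.93 in saline samples. In these deposited values the sums of the groups did not overlap, by a narrow margin, as was so for the eosinophil list. How often sums of this kind separate was not counted. Cd79b and Vpreb3, the 2 tested of 12 listed B-lineage genes, had log2 fold changes of 0.69 and 0.42. The part of these other cells in the differences of the factors was not tested.

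The calls on the factors depended on how the arrays were weighted. With array weights, limma called 6 of the 8, Gata1, Gata2, Tal1, Lyl1, Gfi1b and Nfe2, with log2 fold changes of 1.10 to 1.93, and it called 60.4% of all tested genes. The weights were estimated from the same values and gave 0.329 to saline replicate 1 and 0.308 to 5-HT replicate 2, and their estimation stopped before its tolerance was reached. Without saline replicate 1 the log2 fold changes were 1.17 for Gata1, 1.25 for Tal1 and 1.46 for Gfi1b, and without 5-HT replicate 4 that of Gata1 was 0.14. No factor passed an adjusted p under 0.05 in limma when any 1 array was left out, and the lowest such p was 0.0504, for Gfi1b without saline replicate 1.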

How the data were processed

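Transcripts were measured in CD41-selected marrow cells on 7 Illumina mouse BeadChip arrays; which samples shared a chip is not given in the sources used here. The deposited values are log2 signals: the authors exported the scanner signals from GenomeStudio, log-transformed them and normalized each array to the same median. The chip is named in 2 ways in the sources, and background subtraction is not given in the sources used here. A table of signals before normalization was not used, since the names of its 14 value columns match no sample.

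Of 45281 probes, 34885 had 1 symbol in the platform annotation, 18 several and 10378 none, and only the first were used. The brightest probe stood for each of 19057 genes. Genes with a mean log2 signal of at least 7.5 were tested in R 4.3.3 with limma 3.58.1 (lmFit, then eBayes). Group was the single factor of the model, which left 5 residual degrees of freedom beside 18.9 prior ones, and p-values were adjusted after Benjamini and Hochberg over 5428 genes. The procedure was tested on simulated data. Runx1, outside that fit, and the tested factors beside it were also tested by exact permutation (two-sided) of 35 arrangements. The number of arrays limits the precision.

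The members and lists were chosen with earlier results of these data known. All members are named, in the partner and MK lists the 4 genes with the largest absolute log2 fold change and set defining genes, in each other list its 2 brightest genes, and the 3 genes most like each tested member. Klf1, Prss34, Prg3, Mcpt8, Gp6, Nrgn, Sox4, Mmp8, the untested eosinophil genes and the array patterns were picked after values were seen. A defining gene is not reported here. Alternatives were quantile and cyclic loess normalization, an equal median over the tested genes, no limit or a limit of 8, averaged probes per gene, array weights, a replicate block, trend and robust options of eBayes, and leaving out each array.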

Additional observations from a re-analysis of the deposited data

How the results depend on the processing

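Of the 8 tested factors, Gata1, Gata2, Tal1, Lyl1, Gfi1b and Nfe2 had log2 fold changes above 0 under every alternative that tested them; the limit of 8 left out Gata1 and Gata2, and averaging probes left out Gata1. Of the 8, 6 exceeded the median of all tested genes in the deposited values, against 5 without saline replicate 2 and 4 without saline replicate 3, without 5-HT replicate 4 or with a replicate block; Gata1 exceeded it in 11 of 15 fits and Tal1 in 14 of 17. Fli1 turned to -0.32 after quantile and -0.34 after cyclic loess normalization, -0.365 with an equal median over the tested genes, -0.04 without 5-HT replicate 1 and -0.047 without 5-HT replicate 3 (range -0.047 to 0.29 over arrays left out). Mafg turned to -0.32, -0.37 and -0.31 under those 3 rescalings, -0.083 with array weights and -0.16 without 5-HT replicate 1 (range -0.16 to 0.26). The groups of Runx1 were also apart after cyclic loess normalization (difference -0.43) and with an equal median, each with a two-sided exact permutation p of 0.0571. In this direction 131 of 5584 tested genes were apart after cyclic loess normalization and 153 of 5428 with an equal median, and Runx1, not tested, is in neither count. For Runx1 the difference was -0.67 with an equal median. The median of all tested genes was then -0.023, and that of the neutrophil genes was 0.13 after quantile and -0.054 after cyclic loess normalization, -0.063 with an equal median and 0.14 to 0.42 over arrays left out, lowest without 5-HT replicate 1.

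Calls at an adjusted p under 0.05 over all tested genes were 0 in the deposited values, 3 with trend and robust, 3281 with array weights, which called 6 factors, and 0 to 77 over arrays left out (77 without saline replicate 1, 1 without saline replicate 3 or 5-HT replicate 3). The count at an unadjusted p under 0.05 was 311, then 1022 without a limit, 3649 with array weights and 55 (without saline replicate 2) to 1690 (without 5-HT replicate 2). Leaving out saline replicate 1 gave 1490, saline replicate 3 gave 61, and the fits gave 156, 69 and 187 without 5-HT replicates 1, 3 and 4. The cause was not tested. In fits without a saline array, the remaining pair is assumed to vary like the other arrays.

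With the replicate number as a block, which leaves 5-HT replicate 4 out of the comparison, 45 genes were called and 1247 had an unadjusted p under 0.05; no factor was called, and Nfe2 had an adjusted p of 0.0591 in limma. Same-numbered samples correlated in their deviations at 0.145, 0.684 and -0.247. Across the groups, saline replicate 2 and 5-HT replicate 2 were most like each other, and 5-HT replicate 1 was most like saline replicate 1. Saline replicate 3 was most like 5-HT replicate 2, saline replicate 1 most like 5-HT replicate 4, and 5-HT replicates 3 and 4 most like saline replicate 1. The labels do not say whether the numbers pair the samples, and these correlations cannot decide it.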

Other observations

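The genes whose signals ran most closely with each tested factor over the 7 arrays are given as a description; the arrays share the group difference and their own spread. In the deposited values Gata1 ran closest with Ipo4, Tspan4 and Smyd2 (Pearson's r 0.992 to 0.994), while the median r of Gata1 with all tested genes was 0.676. Tal1 was most like Slc19a1, Nol12 and Tubb2b (r 0.995 to 0.998) and Gfi1b most like Ormdl3, Ahi1 and Chchd6 (r 0.994 to 0.999). The closest to Gata2 were Mpv17l2, Coq6 and Wdr73, and to Lyl1 Ccdc97, Mark3 and Ints3. Nfe2 ran with Arhgdib, Myl6, a myosin light chain, and Psmb10, a subunit of the immunoproteasome (r 0.995 to 0.997). Fli1 was closest to Iqgap1, a cytoskeletal scaffold, Tshz1 and Ndufa10 (r 0.960 to 0.972), and Mafg to Hacd4, Mospd1 and Trps1 (r 0.964 to 0.970), with a median r over all tested genes of 0.407 for Mafg and 0.767 for Nfe2.

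After quantile normalization the median r with all tested genes lay near 0, at 0.0955 for Gata1 and -0.164 for Mafg, and most of the closest genes were others. Tal1 was then closest to Fermt3 (kindlin-3, which activates platelet integrins), Gas2l1 and Cd151, a tetraspanin of platelets, with r of 0.989 to 0.994. Gata1 was closest to Dok2, Smyd2 and Noa1, and Nfe2 to 0610030E20Rik, Nop53 and Pglyrp1 (r 0.952 to 0.975), the last a granule protein of neutrophils. Smyd2 for Gata1, Mark3 for Lyl1 and Mospd1 for Mafg were among the closest 3 on both scales.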
